A study of Homo sapiens with 6 samples.

Results

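The ABC transporter genes were followed in breast epithelial cells that had acquired resistance to fluvastatin, a statin that blocks HMG-CoA reductase. They were taken as every deposited gene symbol made of ABC, a subfamily letter from A to G and a number, which gave 46 of the 81496 symbols on the array. Of several probe sets for 1 symbol, that with the highest average on the 5 compared arrays was used. This choice concerned 6 genes, ABCA13, ABCC1, ABCC9, ABCD2 and ABCD3 among them, and the other 40 genes had 1 probe set each. One of the 46, ABCC13, is a pseudogene in humans.

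The sensitive line was MCF10.AT1, a preneoplastic member of the MCF10A series of human mammary epithelial cells that was transformed with HRAS, and it was untreated. The resistant line, MCF10.AT1-R, was selected from it in fluvastatin raised from 1 µM through 5 µM up to 20 µM, and it is a single derived line. Both lines were grown in the same medium, and the sources used here do not state whether fluvastatin was present when the resistant cells were harvested. Total RNA of 3 biological replicates per line was measured on Clariom D arrays, of which A01, A02 and A03 were MCF10.AT1 and B02, B03 and B04 were MCF10.AT1-R.

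ABC proteins bind and split ATP through a conserved cassette, and most use it to move lipids, sterols, drugs or peptides across a membrane. Subfamilies A and G hold exporters of sterols and phospholipids, subfamilies B and C hold the exporters known for multidrug resistance, subfamily D serves peroxisomes, and subfamilies E and F have no membrane part and work in translation. Several statins are carried by ABCG2, ABCC2 and ABCB1, and cells that hold excess sterol switch on ABCA1 and ABCG1 through the liver X receptors (LXR).

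All values are log2 expression by the RMA method. The Pearson correlation between the 5 compared arrays lay between 0.967 and 0.977 over all transcript probe sets, and that of A03 with them lay between 0.779 and 0.795. A03, which the study removed, was therefore kept out of the comparison and is given apart. The array letter separated the lines in full, so line and any batch that the letter marks cannot be told apart. All 6 epithelial markers (KRT5, KRT14, KRT17, TP63, and the general epithelial genes CDH1 and EPCAM) exceeded the negative controls on each of the 5 compared arrays. Of the defining markers of other cell types, PTPRC and LYZ of white blood cells, KDR of endothelium, and LUM and PDGFRB of fibroblasts did not. By the rule for expression given next, 3 of 6 fibroblast, 3 of 5 white blood cell and 3 of 4 endothelial markers were expressed.

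Of the 46 ABC genes, 24 (52.2%) were expressed, which here means above the 95th percentile of the 612 negative control probe sets on every array of at least 1 line. This limit lay between 2.88 and 3.14 on the 5 compared arrays. By the same rule 33.4% of all gene symbols were expressed. Among the ABC genes, 22 were above the limit on all 5 arrays. The other 2 were ABCC6 and ABCG4. ABCC6 fell short on B03 alone. ABCG4 passed on both MCF10.AT1 arrays and, of the MCF10.AT1-R arrays, missed the limit on B03 and passed on B02 and B04. A further 4 genes (ABCA3, ABCA8, ABCC5 and ABCC8) exceeded it on some arrays of each line or of 1 line, and 18 exceeded it on none. With the 99th percentile as the limit, the number of expressed genes dropped to 14.

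**Figure D1:**
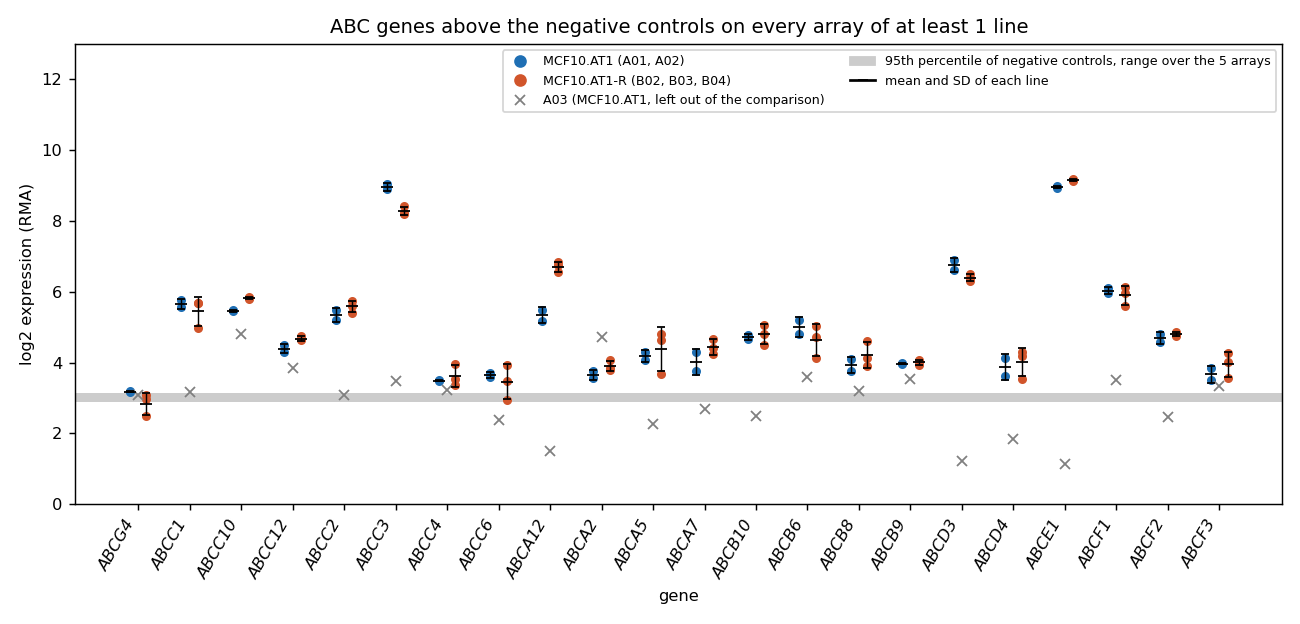
Log2 expression (RMA, y axis) of 22 expressed ABC genes (x axis, ordered by role), with 1 point per array, black bars for the mean and SD of each line (2 arrays of MCF10.AT1, 3 of MCF10.AT1-R), grey crosses for A03 and a grey band for the range of the negative control limit, 2.88 to 3.14. The lines stand well apart for ABCA12, at 5.18 to 5.49 against 6.56 to 6.83, and for ABCC3, at 8.89 to 9.04 against 8.21 to 8.42.

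The sequence ahead of the start sites, which the choice of genes did not use, was richer in CpG for the expressed ABC genes than for the others. Windows of 250 bases before the outermost start were found in RefSeq (GRCh38.p14) for 35 of the 46 genes. Among the others were ABCA4, ABCA8, ABCB4, ABCB5, ABCC1, ABCC3, ABCC8, ABCC13 and ABCG1. In the 20 expressed genes with a window the median GC content was 66.4% (45.6% to 80.4%) and the median number of CpG dinucleotides was 22.5 (1 to 42). In the 15 genes that were not expressed the medians were 46% and 2 CpG (0 to 38), and over all 27305 symbols with a window they were 57.6% and 10. The GC box, spelled GGGCGG and searched on both strands, occurred in 12 of the 20 expressed genes (60%), in 5 of the 15 others (33.3%) and in 42.2% of all symbols. These are descriptions of the windows and were not tested.

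ABCA12, the expressed ABC gene with the largest difference between the lines, and ABCC2, an exporter of drug conjugates, had CpG-poor windows although both were expressed on all 5 arrays, whereas ABCE1, a ribosome recycling factor, had a CpG-rich one. The windows are shown 5′ to 3′ on the strand of the gene, with every CpG in capitals, to show how unlike the starts of expressed ABC genes were.
ABCA12, chr2:215138627-215138876, minus strand: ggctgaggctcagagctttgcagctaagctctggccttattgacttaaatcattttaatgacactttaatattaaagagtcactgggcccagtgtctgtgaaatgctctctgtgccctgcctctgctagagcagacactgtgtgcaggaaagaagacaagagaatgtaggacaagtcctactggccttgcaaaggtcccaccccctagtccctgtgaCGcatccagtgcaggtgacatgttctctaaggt
ABCC2, chr10:99782390-99782639, plus strand: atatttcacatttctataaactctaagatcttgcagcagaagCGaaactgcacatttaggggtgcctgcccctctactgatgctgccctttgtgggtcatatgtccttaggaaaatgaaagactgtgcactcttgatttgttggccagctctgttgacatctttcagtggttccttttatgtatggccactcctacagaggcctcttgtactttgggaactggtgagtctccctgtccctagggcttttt
ABCE1, chr4:145098061-145098310, plus strand: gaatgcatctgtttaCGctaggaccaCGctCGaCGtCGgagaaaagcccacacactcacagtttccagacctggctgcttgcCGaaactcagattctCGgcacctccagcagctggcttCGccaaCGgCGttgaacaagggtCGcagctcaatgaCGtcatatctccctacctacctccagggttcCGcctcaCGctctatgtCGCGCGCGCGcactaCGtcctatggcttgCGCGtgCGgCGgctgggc
The ABCA12 window had 48.8% GC and 1 CpG. That of ABCC2 had 45.6% GC and 1 CpG, and that of ABCE1 had 60% GC and 24 CpG. No GC box was in any of these 3 windows. The sterol regulatory element, searched as its classical consensus on both strands, was in none of the 53 windows of the 35 genes (all their start sites) and in 0.0883% of all 35116 windows. The AP-1 site TGANTCA was in 5 of the 53 windows and in 6.57% of all windows. The 5 belonged to ABCA10, ABCB1, ABCB11, ABCC11 and ABCD2, none of them expressed. The core of the antioxidant response element, TGACNNNGC, was in 9 of the 53 windows and in 10.9% of all windows. Its 9 genes were all expressed but ABCA3. The nuclear receptor half-site AGGTCA was in 2 of the 53 windows, those of ABCF1 and ABCG2, and in 12.1% of all windows. None of these shares was tested.

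The comparison of the lines asked which ABC transporters had changed with acquired resistance. ABCA12, a lipid transporter of skin keratinocytes, was higher in MCF10.AT1-R and passed the test. ABCC3, an exporter of glucuronide and bile acid conjugates, was lower on every MCF10.AT1-R array and did not pass the test over all probe sets. The exporters best known for drug resistance either were not above the negative controls (ABCB1 and ABCG2) or had differences of -0.21 (ABCC1), 0.25 (ABCC2) and 0.13 (ABCC4) on the log2 scale that did not pass. The sterol exporters ABCA1 and ABCG1 were not above the negative controls in either line.

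The lines were compared with limma over the 51457 probe sets left by a filter on low and invariant values, with Benjamini-Hochberg adjustment over all of them and a false discovery rate (FDR) of 5%. Of the 46 ABC genes 30 were tested. The filter removed 8 as low and 8 as invariant only, and 6 of the latter were expressed genes, ABCB9, ABCC12, ABCE1 and ABCF2 among them. One of the 30, ABCA12, passed as higher in MCF10.AT1-R and none passed as lower. This is 3.33% of the tested ABC genes, beside 1.2% of all probe sets tested (0.758% higher and 0.447% lower). After the filter limma gave every probe set the same SD of 0.34, so that the standard error (SE) was 0.31 for each gene and the smallest change called anywhere was 1.07 on the log2 scale. When the SD was allowed to follow the expression level (the trend option of limma), ABCA12 (higher) and ABCC3 (lower) were called, beside 2.68% of all probe sets (1.69% higher and 0.981% lower). Both were also called with the trend option after the filter on low values alone, beside 1.6% of all probe sets. Without the trend option no ABC gene was called after that filter alone, beside 0.268%, or with no filter, beside 0.13%.

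The order of the arrays, which needs no estimate of the SD, gave a broader count. For 8 of the 24 expressed ABC genes (33.3%) the MCF10.AT1-R arrays lay all above or all below both MCF10.AT1 arrays. The share over all expressed symbols was 33.6%. The MCF10.AT1-R arrays were the higher ones for ABCA12, ABCA2, ABCC10, ABCC12 and ABCE1 (20.8%, beside 17.2% of all expressed symbols). They were the lower ones for ABCC3, ABCD3 and ABCG4 (12.5%, beside 16.4%). These shares are near those of all expressed symbols. With 2 arrays against 3 a two-sided exact permutation test cannot give a p below 0.2, so no such test was used for single genes. ABCA12 and ABCC3 also had a difference of at least 0.58, which together with separate arrays was met by 8.08% of all expressed symbols.

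The median log2 difference (MCF10.AT1-R minus MCF10.AT1) of the 24 expressed genes was 0.15, with 17 positive and 7 negative values, and that of all expressed symbols was -0.01. It was 0.07 without B04 and 0.09 without A02. The median size of the difference was 0.23 for the ABC genes and 0.19 for all expressed symbols. The 95% interval was read from the filtered fit for 18 of the 24 genes and from the fit without a filter for 6. It lay within a 2-fold change in either direction for 21 of the 24 genes. It reached past 2-fold for ABCA12, ABCA7 and ABCC3, and it left out 0 for ABCA12 and ABCC3. For the 18 genes its width rests on the common SD of 0.34. Without a filter the interval of ABCB6 reached past 2-fold (-1.01 to 0.29) and that of ABCA7 did not (-0.11 to 0.96).

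**Figure D2:**
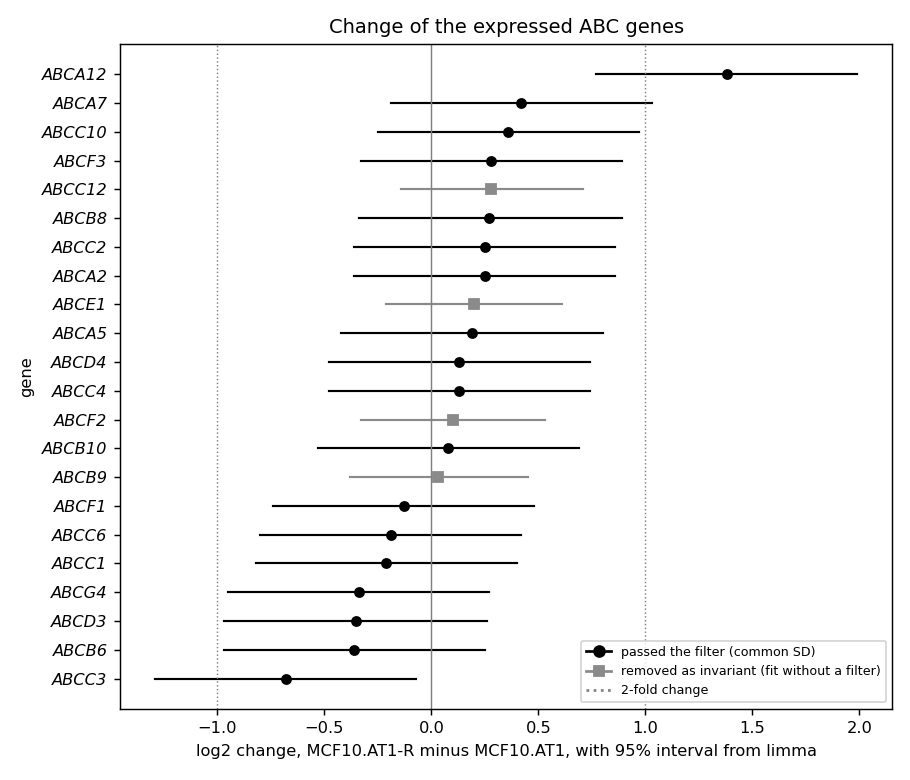
Log2 change (x axis, MCF10.AT1-R minus MCF10.AT1) with its 95% interval from limma for 22 expressed ABC genes (y axis), in black for genes that passed the filter and in grey for 4 removed as invariant, whose intervals come from a fit without a filter. The interval of ABCA12 runs from 0.77 to 1.99 and that of ABCC3 from -1.29 to -0.07, and all others cross 0.

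**Figure D3:**
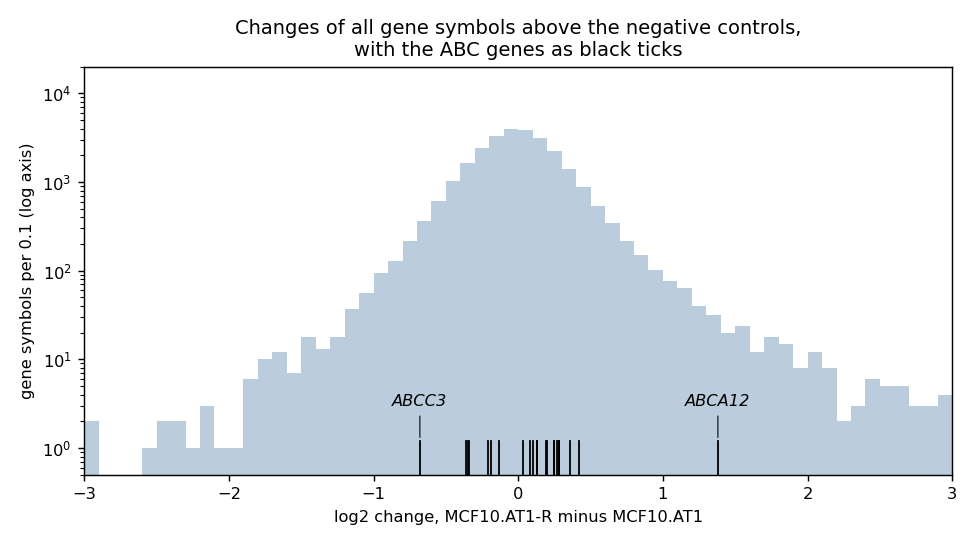
Number of expressed gene symbols (y axis, log scale) by log2 change (x axis, MCF10.AT1-R minus MCF10.AT1, bins of 0.1), with 22 expressed ABC genes as black ticks and symbols beyond the ends of the axis not drawn. The ABC genes lie between -0.68 (ABCC3) and 0.42 (ABCA7), apart from ABCA12 at 1.38.

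The sterol and phospholipid exporters were mostly not expressed on these arrays. Of ABCA1, ABCG1, ABCG4, ABCG5 and ABCG8, ABCG4 alone was expressed by the rule. ABCA1, which loads cholesterol and phospholipid onto apolipoprotein A-I, read 2.05 and 2.56 on the MCF10.AT1 arrays A01 and A02 and 2.48, 1.52 and 2.39 on the MCF10.AT1-R arrays B02, B03 and B04. ABCG1, which passes sterol to HDL particles, read 2.16 and 1.72 on A01 and A02 and 2.06, 1.75 and 1.77 on B02, B03 and B04. All these values lay under the limit and the lines overlapped for both genes, so no fold is given. ABCG4, a sterol exporter known mainly from the brain, read 3.19 and 3.17 on A01 and A02 and 2.96, 2.49 and 3.08 on B02, B03 and B04. Its MCF10.AT1-R arrays were the lower ones, close to the limit, and the difference of -0.34 did not pass (limma, adjusted p = 0.835). ABCG5 and ABCG8, the paired sterol exporters of liver and gut, lay under the limit on all 5 arrays.

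Among the 11 exporters of drugs and conjugates, 7 were expressed and none passed the test. ABCC3 had the largest difference of them. It read 9.04 and 8.89 on A01 and A02 and 8.24, 8.42 and 8.21 on B02, B03 and B04. All 3 MCF10.AT1-R arrays lay below both MCF10.AT1 arrays, with a gap of 0.48 between the lines. The means were 8.97 ± 0.11 (SD, n = 2) and 8.29 ± 0.11 (SD, n = 3), and the difference was -0.68 (SE 0.31, 95% interval -1.29 to -0.07, limma adjusted p = 0.492), which is a 1.6-fold higher level in MCF10.AT1. The SD of its own arrays, 0.11, was a fraction of the common 0.34 that the test used. With the trend option the adjusted p of limma was 1.68e-06. Without the trend option ABCC3 also did not pass in fits with a smaller SE. These were the fit without a filter (SE 0.19, limma adjusted p = 0.516) and that with the filter on low values alone (SE 0.18, limma adjusted p = 0.341). The call of ABCC3 therefore depended on the trend option.

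ABCC1 and ABCC2, which export glutathione and glucuronide conjugates and many anticancer drugs, were close in the lines. ABCC1 read 5.76 and 5.56 on A01 and A02 and 5.69, 4.98 and 5.68 on B02, B03 and B04. B03 was the lowest array and the others overlapped, with a difference of -0.21 (95% interval -0.82 to 0.40, limma adjusted p = 0.872). A second probe set of ABCC1 was above the limit on 1 array and had a difference of -0.16. ABCC2 read 5.20 and 5.48 on A01 and A02 and 5.61, 5.74 and 5.41 on B02, B03 and B04. B04 lay between the MCF10.AT1 arrays, so the lines overlapped, and the difference was 0.25 (95% interval -0.36 to 0.86, limma adjusted p = 0.851).

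ABCC4, an exporter of cyclic nucleotides and drugs, read 3.51 and 3.48 on A01 and A02 and 3.55, 3.36 and 3.95 on B02, B03 and B04. Its lines overlapped, with a difference of 0.13 (95% interval -0.48 to 0.74, limma adjusted p = 0.924). The intervals of ABCC1, ABCC2 and ABCC4 all stay within a 2-fold change. ABCC4 lay under the 99th percentile of the negative controls on all 5 arrays, so signal near background limits what its interval shows. ABCB1, the P-glycoprotein, read 1.76 and 2.12 on A01 and A02 and 2.03, 2.10 and 2.05 on B02, B03 and B04. ABCG2, the breast cancer resistance protein, read 2.95 and 2.22 on A01 and A02 and 2.40, 1.55 and 2.61 on B02, B03 and B04. Both lay under the limit on all 5 arrays, as did ABCC11, and no fold is given for them.

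In the same group ABCC10 and ABCC12 also had separate arrays, and they were picked out for this after their values were seen. ABCC10, an exporter of taxanes and conjugates, read 5.48 and 5.45 on A01 and A02 and 5.85, 5.80 and 5.82 on B02, B03 and B04. The SD within each line was small (0.02 and 0.03), and the difference of 0.36 (95% interval -0.25 to 0.97) did not pass with the common SD (limma adjusted p = 0.828) or with the trend option (limma adjusted p = 0.701). ABCC12 was 0.28 higher in MCF10.AT1-R and was removed as invariant (limma without a filter, adjusted p = 0.833). ABCC6, whose probes can share signal with its pseudogenes ABCC6P1 and ABCC6P2, had a difference of -0.19 (limma adjusted p = 0.881).

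Subfamily A outside ABCA1 holds lipid transporters with tissue-specific tasks. Of these 11 genes 4 were expressed, and ABCA12 rose. ABCA12 carries glucosylceramides into the lamellar granules of keratinocytes, from which the lipid barrier of the skin is made, and its loss causes harlequin ichthyosis. It read 5.49 and 5.18 on A01 and A02 and 6.83, 6.56 and 6.75 on B02, B03 and B04. Every MCF10.AT1-R array lay above both MCF10.AT1 arrays, with a gap of 1.07 between the lines. The means were 5.34 ± 0.23 (SD, n = 2) and 6.71 ± 0.14 (SD, n = 3). The difference was 1.38 (SE 0.31, 95% interval 0.77 to 1.99, limma adjusted p = 0.00178), or 2.6-fold. The call was lost without A02 (difference 1.22, limma adjusted p = 0.256), without any filter (limma adjusted p = 0.0683) and with the filter on low values alone (limma adjusted p = 0.0585), and it held with the trend option (limma adjusted p = 1.73e-08). In RNA of whole cultures, more cells that express the gene and more RNA per cell cannot be told apart.

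The other expressed genes of this group did not pass. ABCA7, a phospholipid exporter, had a difference of 0.42 (95% interval -0.19 to 1.03, limma adjusted p = 0.799) with overlapping arrays, which was 0.16 without A02 and 0.69 without A01. ABCA2, which acts in endosomes and lysosomes, had separate arrays and a difference of 0.25 (limma adjusted p = 0.849), and ABCA5 had overlapping arrays and a difference of 0.19 (limma adjusted p = 0.884). ABCA3, the surfactant lipid transporter of the lung, and ABCA8 exceeded the limit on some arrays. The remaining 5 genes (ABCA4, ABCA6, ABCA9, ABCA10 and ABCA13) did so on none, and the same holds for ABCB4 and ABCB11, which export phosphatidylcholine and bile salts from liver cells. Of the sulfonylurea receptors, which are regulators of potassium channels, ABCC8 exceeded the limit on some arrays and ABCC9 on none.

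**Figure D4:**
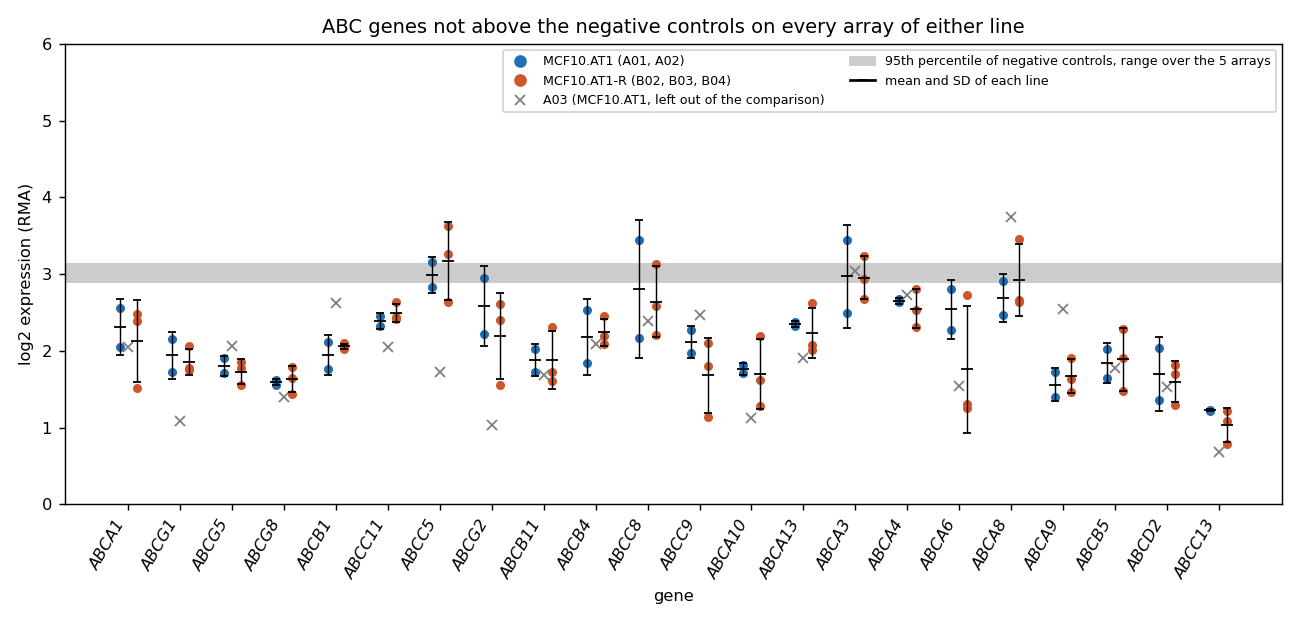
Log2 expression (RMA, y axis) of the 22 ABC genes that were not expressed by the rule (x axis, ordered by role), with 1 point per array, black bars for the mean and SD of each line, grey crosses for A03 and a grey band for the range of the negative control limit. ABCA1, ABCB1, ABCG1 and ABCG2 lie under the band or at its lower edge on all 5 compared arrays, and ABCA3, ABCA8, ABCC5 and ABCC8 each have at least 1 array above it.

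The ABC proteins of organelles and of the cytosol were expressed for the most part, and none of them passed the test. Of 6 genes of subfamily B grouped here, 5 were expressed and the lines overlapped for all 5, and ABCB5, which sits in the plasma membrane, was not expressed. Among the 5 were ABCB6 (difference -0.36), which carries porphyrins, ABCB8 (0.27) and ABCB10 (0.08) of the inner mitochondrial membrane, and ABCB9 (0.03), a lysosomal peptide transporter. In subfamily D, ABCD3, which brings fatty and bile acid precursors into peroxisomes, read 6.62 and 6.90 on A01 and A02 and 6.40, 6.31 and 6.50 on B02, B03 and B04. Its MCF10.AT1-R arrays were the lower ones, and the difference of -0.35 (95% interval -0.97 to 0.26) did not pass (limma adjusted p = 0.83). ABCD4, which serves cobalamin release from lysosomes, had a difference of 0.13 with overlapping arrays, and ABCD2 was not expressed.

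All 4 soluble proteins were expressed. ABCE1, which splits ribosomes after translation ends, read 8.99 and 8.93 on A01 and A02 and 9.16, 9.18 and 9.14 on B02, B03 and B04. Its arrays did not overlap, but the difference was 0.20 (95% interval -0.21 to 0.61 in limma without a filter, adjusted p = 0.884). ABCF1, ABCF2 and ABCF3, ATPases tied to the ribosome, had differences of -0.13, 0.10 and 0.28 with overlapping arrays.

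Genes that work with the ABC transporters were read from lists by function, with every list counted in the same limma table. Of 13 matched genes of lamellar granules and skin lipids, 9 were tested. ELOVL4, which makes the very long fatty acids of skin ceramides, passed as higher, as ABCA12 did. Of all probe sets tested 0.758% passed as higher. ELOVL4 read 3.42 and 4.01 on A01 and A02 and 5.12, 4.49 and 5.58 on B02, B03 and B04. Its arrays did not overlap, and the difference was 1.35 (limma adjusted p = 0.00259). This call was lost without a filter (limma adjusted p = 0.412) and with the filter on low values alone (limma adjusted p = 0.324). UGCG, which makes the glucosylceramide that ABCA12 carries, had separate arrays, as 33.6% of all expressed symbols did. Its difference was 0.63 (limma adjusted p = 0.575). The barrier enzymes CERS3, PNPLA1, ALOX12B, CYP4F22 and SDR9C7 were under the limit on all 5 arrays. The median difference of the 5 expressed genes of this list was 0.26.

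Some markers of keratinocytes also passed as higher in MCF10.AT1-R, and their part in the ABCA12 result was not tested. Of 5 matched markers of cornifying keratinocytes, 3 were expressed and 2 passed, KRT1 (difference 1.10, limma adjusted p = 0.0366) and CDSN (difference 1.14, limma adjusted p = 0.0269), beside 0.758% of all probe sets. Without a filter neither passed (limma adjusted p = 0.136 for KRT1 and 0.263 for CDSN), nor with the filter on low values alone (0.0966 and 0.199 in limma). KRT10 had a difference of 0.58 (limma adjusted p = 0.648), and the defining markers LOR and FLG were not expressed, with overlapping arrays. The summed log2 level of the 5 was 15.5 to 15.7 on the MCF10.AT1 arrays and 17.5 to 19.0 on the MCF10.AT1-R arrays. Of the 6 epithelial markers 5 rose, all but EPCAM (difference 0.78, limma adjusted p = 0.341), with CDH1 no longer called without a filter (limma adjusted p = 0.0616), and their summed level was 39.0 to 40.0 against 51.1 to 52.0. Of the fibroblast, white blood cell and endothelial markers, DCN (-2.15), CD14 (-1.12) and PECAM1 (-1.12) fell and none rose, and without a filter DCN alone of these was called (limma adjusted p = 0.0191, beside 0.157 for CD14 and 0.17 for PECAM1). Their summed levels in MCF10.AT1 and MCF10.AT1-R were 25.7 to 26.1 against 23.4 to 24.2 for 6 fibroblast genes, 14.3 to 16.1 against 15 to 15.7 for 5 white blood cell genes, and 13.4 to 13.8 against 11.6 to 12.7 for 4 endothelial genes.

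Sterol control genes were measured well where ABCA1 and ABCG1 were not. Of 6 targets of SREBP2, the factor that is active when sterol is low, all were expressed with separate arrays, beside 33.6% of all expressed symbols, and the median difference was 0.97. HMGCS1 rose (difference 1.57, limma adjusted p = 0.000121), as 0.758% of all probe sets did. With the trend option 5 of the 6 passed as higher, beside 1.69% of all probe sets. Of 9 LXR targets outside the ABC family, 6 were expressed, none of the 8 tested passed, and the median difference was -0.06. SCD (difference 0.83) and APOC1 (difference 1.01) passed as higher with the trend option, beside 1.69% of all probe sets, and both have further regulators than LXR. LPCAT3 (difference -0.39) and SREBF1 (difference -0.27) had separate arrays with MCF10.AT1-R lower. Neither passed with the trend option. Among 10 regulators of ABC transporter genes, 8 were expressed, including NR1H3 and NR1H2, the genes of both LXR proteins, and NFE2L2, and none of the 7 tested passed, with a median difference of 0.11. The 6 partners of cholesterol efflux were all expressed and none of the 3 tested passed, with a median of 0.03. NPC2, which moves cholesterol out of lysosomes, had a difference of -0.52. It passed as lower with the trend option, beside 0.981% of all probe sets.

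None of the tested partners of the organelle and cytosol proteins passed, which were 3 for peroxisomal beta-oxidation, 4 for mitochondrial haem and iron-sulfur synthesis and 3 for translation. The medians over 6 expressed genes each were 0.13, -0.15 and -0.07 in this order. Of the ABC proteins whose symbols do not start with ABC, the antigen peptide transporters were the expressed ones. TAP1 read 6.03 and 6.04 on A01 and A02 and 6.59, 6.36 and 6.64 on B02, B03 and B04. TAP2 read 6.04 and 6.0 on A01 and A02 and 6.59, 6.61 and 6.42 on B02, B03 and B04. The MCF10.AT1-R arrays were the higher ones for both, with differences of 0.50 (limma adjusted p = 0.741) and 0.52 (limma adjusted p = 0.714). CFTR, the chloride channel, was under the limit on all 5 arrays. Of the 14 ABC pseudogene and antisense symbols 4 were expressed, and none of those left by the filter passed.

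**Figure D5:**
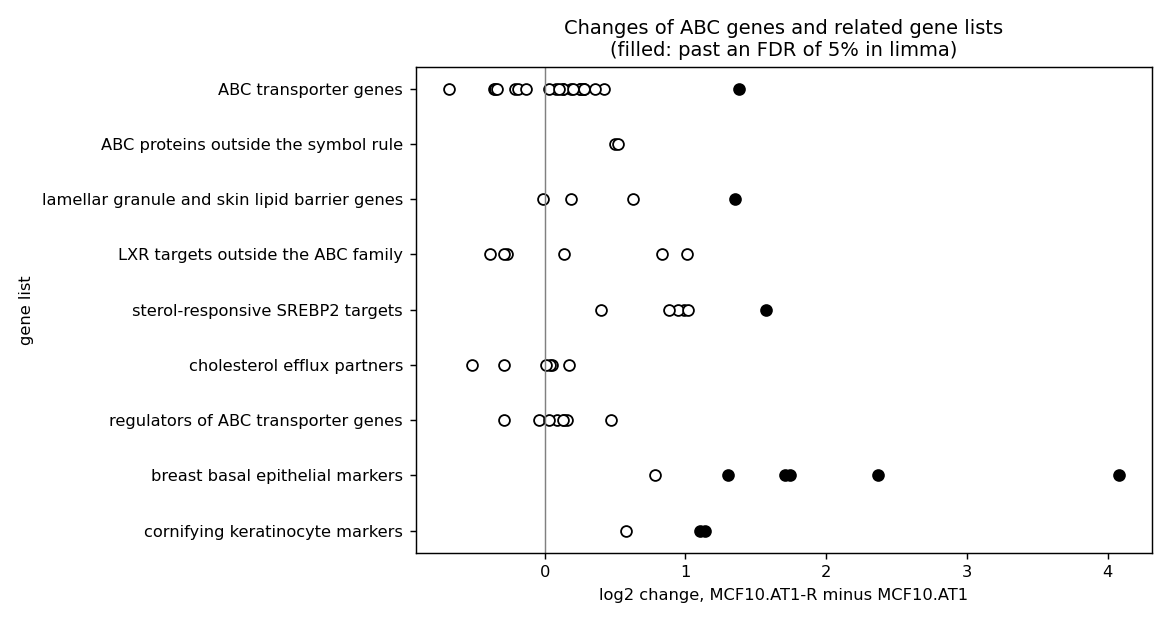
Log2 change (x axis, MCF10.AT1-R minus MCF10.AT1) of expressed members of the ABC genes and of 8 lists (y axis), 1 circle per gene, filled where the gene passed an FDR of 5% in limma. One ABC gene (ABCA12), 1 gene of the lamellar granule list (ELOVL4), 1 SREBP2 target (HMGCS1), 5 epithelial markers and 2 cornifying keratinocyte markers are filled.

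A03 gave another picture of the same genes. Of the 24 expressed ABC genes, 22 read lower on A03 than on all 5 other arrays, and 13 were above its negative control limit of 3.15. ABCE1 read 1.14, ABCD3 1.22 and ABCA12 1.50 on A03, all under that limit. ABCC3 read 3.48, which is above it. ABCA2 read 4.72, higher than on any other array.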

How the data were processed

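Total RNA of MCF10.AT1 and MCF10.AT1-R was hybridised to Clariom D arrays, 3 per line. The authors made the log2 expression values by RMA (background correction, quantile normalization, summarisation) with affy and oligo and deposited them unfiltered for all 6 arrays, 138745 probe sets of which 2995 are controls. A plot of principal components in the study marks A01 to A03 as sensitive and B02 to B04 as resistant, which gave the line, and the study's text names A03 as removed. The genome build of the deposited table is not given in the sources used here, and promoter windows came from RefSeq GRCh38.p14.

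Transcript probe sets with a mean over 5 arrays above the median (1.88) and an SD above the lowest 25% (0.18) were compared in R 4.3.3 by limma 3.58.1 (lmFit, then eBayes). P-values were adjusted after Benjamini and Hochberg, and 5% FDR was the threshold. For genes that the filter took out, a fit of all transcript probe sets was read. Both limits of the filter were chosen here, as the study does not give its own. Scripts were tested on simulated data. Values on every array were printed for ABC genes past FDR 5%, for expressed ABC genes with separate arrays and a difference of at least 0.58, for ABCA1, ABCB1, ABCC1, ABCC2, ABCC3, ABCC4, ABCG1 and ABCG2, and, picked after their values were seen, for ABCC10, ABCD3, ABCE1, ABCG4, ELOVL4, TAP1 and TAP2. The members and lists were chosen with earlier results of these data known. Alternatives changed the arrays, filter, variance model, normalization, array weights, probe set per gene, threshold and background limit. The number of arrays limits the precision. The labels call the samples biological replicates. The sequencing, qPCR and animal data of the study were not analysed here. Some genes are counted in the totals and are not reported here singly or drawn.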

Additional observations from a re-analysis of the deposited data

How the results depend on the processing

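The number of ABC genes past FDR 5% (1) was 0 with A03 added, 0 without a filter, 0 with the filter on low values alone, 2 with the trend option and 2 with the filter on low values and the trend option. It ranged from 0 to 2 when single arrays were left out, 0 without A02 and 2 without B02, where ABCA6, under the limit on all 5 arrays, joined ABCA12. The log2 change of ABCA12 was 2.66 with A03 added (limma adjusted p = 0.777), 1.38 without a filter and 1.38 with the low filter alone, none of them called, and 1.22 to 1.54 with single arrays left out. Its adjusted p ranged from 1.73e-08 to 0.256 over the settings without A03. ABCC3 (-0.68) passed with the trend option (limma adjusted p = 1.68e-06) and with the low filter and trend (limma adjusted p = 0.00233), and lay between -0.75 and -0.60 with single arrays left out. With A03 added the sign turned for ABCA2 (-0.10), ABCB6 (0.11), ABCC1 (0.62), ABCC3 (1.15), ABCC6 (0.23), ABCD3 (1.49) and ABCF1 (0.71), and the median of the expressed genes was 0.76. With single arrays left out ABCA5 ranged from -0.03 to 0.54, ABCC6 from -0.44 to 0.06, ABCD4 from -0.13 to 0.39, ABCC1 from -0.33 to -0.11, ABCC2 from 0.17 to 0.39, ABCC4 from 0.11 to 0.26, ABCB6 from -0.57 to -0.11, ABCB8 from 0.08 to 0.44, ABCB10 from 0.01 to 0.22, ABCF1 from -0.24 to -0.06 and ABCF3 from 0.11 to 0.47, none of them called. These ranges leave out fits in which the filter dropped the gene. Those were ABCC1 and ABCF1 without B03, ABCC4 and ABCB10 without B04, and ABCC2 without A01. For these genes the ranges do not show whether the sign held without that array. The count of genes with separate arrays (8) was 4 with A03 added and 11 to 14 with single arrays left out, since fewer arrays overlap less often. The count of expressed genes (24) was 14 with the 99th percentile as the limit. Normalizing the 5 arrays again, centring, array weights, averaged probe sets and FDR 10% left the count of called genes at 1. No paired analysis was possible because the array names carry no replicate number of the labels. Signal over background limits what can be said of the 22 genes that were not expressed, and 5 arrays limit the rest.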
